A study of Mus musculus with 10 samples.

Results

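The genes described here stand for the nuclear subunits of mitochondrial complexes II to V and cytochrome c, apart from a few rows, named below, that are not plain subunits. They were taken by symbol from the deposited counts: Sdha to Sdhd, Cyc1, Cycs, and every symbol that starts with Uqcr, Cox4i, Cox5, Cox6, Cox7, Cox8 or Atp5, without symbols ending in -ps or -rs. This gave 49 of 24640 rows: 4 for complex II, 9 for complex III, 1 for cytochrome c, 17 for complex IV and 18 for complex V. A pseudogene row, Atp5l-ps1, was dropped with the -ps symbols. Atp5l2, also annotated as a processed pseudogene, lacks that ending in the counts and was kept with complex V. Of the 49 genes, 48 passed the filter on low counts, as did 15212 of all rows; Cox8c, a testis form of a complex IV subunit, had at most 1 count in any library.

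The study measured total RNA of C57BL/6 mouse brown adipocytes, extracted with TRIzol, by RNA sequencing in 10 libraries. The 5 groups of 2 libraries were DMSO for 1 day, BML-260 for 1 day, DMSO for 3 days, BML-260 for 3 days, and ISO, which the labels list at 1 day. BML-260 is a small molecule known as an inhibitor of the phosphatase DUSP22, DMSO is the solvent control, and the labels do not spell out ISO. They give no genetic change in any group and do not say whether the 2 libraries of a group came from separate cultures, so p-values measure only the spread between libraries, which may be technical.

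Complexes II, III and IV pass electrons along the inner mitochondrial membrane, from succinate through ubiquinone and cytochrome c to oxygen. Complexes III and IV pump protons while doing so, and complex V, the ATP synthase, uses the returning protons to make ATP. In brown adipocytes the uncoupling protein UCP1 lets protons return without ATP being made, so that respiration gives heat. All subunits of complex II are nuclear genes, whereas complexes III, IV and V also hold subunits made from mitochondrial DNA.

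Promoter sequences are shown for 3 members that carry a match to a motif linked to respiratory genes and that differed between groups. Sequences of 34 of the 49 genes were found by symbol in RefSeq sequences of build GRCm38.p6, and the 250 bases before each start were searched on both strands. Capitals mark the match: GCGC, any base and TGCGC (on the other strand GCGCA, any base and GCGC) for the factor NRF1 in Cox6a1 and Sdhd, and TGACGTCA, the cAMP response element, in Cycs. All 3 genes lie on the minus strand, and the sequences are given 5′ to 3′ in the direction of the gene. They cover chr5:115348959-115349208 (Cox6a1), chr9:50603850-50604099 (Sdhd) and chr6:50566570-50566819 (Cycs).
Cox6a1: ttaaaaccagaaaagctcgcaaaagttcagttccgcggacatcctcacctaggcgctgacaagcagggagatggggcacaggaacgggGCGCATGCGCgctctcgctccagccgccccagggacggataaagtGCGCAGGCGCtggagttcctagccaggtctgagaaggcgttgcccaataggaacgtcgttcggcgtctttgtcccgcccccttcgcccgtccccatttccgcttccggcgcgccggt
Sdhd: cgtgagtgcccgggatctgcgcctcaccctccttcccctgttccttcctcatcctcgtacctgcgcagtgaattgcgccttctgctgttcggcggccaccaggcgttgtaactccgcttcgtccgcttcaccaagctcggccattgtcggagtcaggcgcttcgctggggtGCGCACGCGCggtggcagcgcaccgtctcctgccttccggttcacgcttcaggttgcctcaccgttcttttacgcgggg
Cycs: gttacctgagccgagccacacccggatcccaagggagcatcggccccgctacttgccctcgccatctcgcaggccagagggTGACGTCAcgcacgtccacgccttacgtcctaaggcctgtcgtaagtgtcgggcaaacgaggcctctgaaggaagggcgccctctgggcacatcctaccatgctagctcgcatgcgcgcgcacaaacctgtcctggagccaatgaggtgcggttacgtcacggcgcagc
The NRF1 letters were in 7 of the 34 promoters (20.6%): Atp5c1, Atp5g2, Atp5h, Atp5k, Cox6a1, Sdha and Sdhd. Of all 27025 genes in these sequences, 4.23% held them, and of 9896 genes that passed the filter on counts 9.26%. The cAMP response element was in 2 of the 34, Cycs and Uqcrfs1, against 1.77% of all genes and 3.05% of those that passed the filter. Single matches were also found to the letters TCAAGGTCA of estrogen-related receptors (Atp5g3, against 0.422% of all genes and 0.323% of those that passed) and AAGATGGC of YY1 (Atp5j, 1.83% and 2.41%), and 3 to CCGGAAGT of ETS factors (Atp5h, Uqcr11 and Uqcrh, 8.82% of the 34, against 3.23% and 6.76%). The share for ETS factors was thus near that of the genes that passed the filter. A match is a description of these letters and not evidence of binding.

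The deposited counts summed to between 16955918 and 21185675 per library. The libraries were described by 9 genes listed as brown adipocyte markers, all of which had counts. The presence of counts does not test the labelled cell type. Fabp4, a fatty acid carrier, was between 4295 and 10560.5 CPM (counts scaled to a common library total), and Adipoq, the hormone adiponectin, between 438 and 1401 CPM. Ucp1 stood at 6.05 and 5.10 CPM with DMSO for 1 day, 15.3 and 12.6 with BML-260 for 1 day, 12.3 and 13.1 with DMSO for 3 days, 32.8 and 30.7 with BML-260 for 3 days, and 26.1 and 23.5 with ISO. Its rise with BML-260 was 1.32 ± 0.13 (SE, edgeR adjusted p = 5.8e-08) at 1 day and 1.32 ± 0.097 (SE, edgeR adjusted p = 4.6e-11) at 3 days, on the log2 scale. The 9 markers did not move together: with BML-260, 3 were higher and 4 lower at 1 day (median -0.15), and 3 higher and 5 lower at 3 days (-0.28). At 3 days Fabp4 (0.31) and Cidea (0.24), a lipid droplet protein, rose with Ucp1. Adipoq (-1.06), Ppargc1a (-0.28) and the transcription regulators Cebpa (-0.94), Prdm16 (-0.75) and Pparg (-0.45) fell. With ISO against DMSO for 1 day, 2 of the 9 were higher and 6 lower (-0.49). The part of these markers' changes in the results was not tested. Among markers of other cells, the 5 of preadipocytes summed to 112 to 123 CPM with DMSO for 1 day, 89.4 to 93.9 with BML-260 for 1 day, 192 to 208 with DMSO for 3 days, 134 to 135 with BML-260 for 3 days and 166 to 188 with ISO. The 5 of smooth muscle summed to 179 to 179, 108 to 118, 226 to 236, 101 to 111 and 174 to 199.8 CPM in the same order. By their sum, preadipocyte markers thus had the reverse order of groups to the subunit sums below, but not every marker did. Ly6a was highest with ISO (8.13 and 6.49 CPM). Dlk1 with BML-260 for 3 days (26.5 and 26.1 CPM) did not lie above Dlk1 with DMSO for 1 day (25.1 and 32.9). Smooth muscle markers summed to less with BML-260 than with DMSO at both times. The part of preadipocyte or smooth muscle markers in the results was not tested. Of the preadipocyte markers, Cd34 was at or near 0 (at most 0.356 CPM). Endothelial markers summed to at most 1.42 CPM and the 2 macrophage markers with a row, Cd68 and Csf1r, to at most 7.18 CPM. Cd68, the macrophage marker that passed the filter, was higher with BML-260 at 3 days (0.72 ± 0.17, SE, edgeR adjusted p = 0.0012) and with ISO against DMSO for 1 day (1.06) and for 3 days (0.70), and its part in the results was not tested. In libraries of whole cultures, fewer cells of a type and less RNA per cell cannot be told apart.

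Fold changes below are on the log2 scale and adjusted p-values come from edgeR's quasi-likelihood test with Benjamini-Hochberg adjustment over all 15212 rows; a gene is called where the adjusted p is under 0.05. Values per library are given as replicate 1 and replicate 2. Over the 5 groups together, 47 of 48 subunit genes differed, where 66.4% of all rows did. The exception was Cox7a1.

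All 4 complexes were highest in the DMSO and BML-260 cultures of 1 day and lower in the 3-day and ISO cultures. Summed over its subunits, complex II stood at 2505 ± 75.6 CPM (SD, n = 2) with DMSO for 1 day, 2714 ± 21.7 with BML-260 for 1 day, 2012 ± 14.8 with DMSO for 3 days, 2134 ± 6.68 with BML-260 for 3 days and 2045 ± 51.4 with ISO. Complex III stood at 4547 ± 6.70, 4885 ± 213, 3270.1 ± 9.04, 3705 ± 47.5 and 3312 ± 7.51 CPM in that order. Complex IV stood at 7048 ± 88.4, 7416 ± 434, 5489 ± 75.6, 6152 ± 171 and 5564 ± 61.8 CPM. The order of the groups was the same in each complex: BML-260 for 1 day, DMSO for 1 day, BML-260 for 3 days, and then ISO and DMSO for 3 days. Complex V stood at 12150.4 ± 271, 13261 ± 358, 9568 ± 168, 10563 ± 76.5 and 9658 ± 132 CPM. For complex IV the lowest library with BML-260 for 1 day (7109) was below the highest with DMSO (7110.2), and for complexes II, IV and V the ranges of ISO and DMSO for 3 days overlapped. Together the 49 genes took 2.66% and 2.64% of the counts with DMSO for 1 day and 2.09% and 2.08% with DMSO for 3 days.

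**Figure D1:**
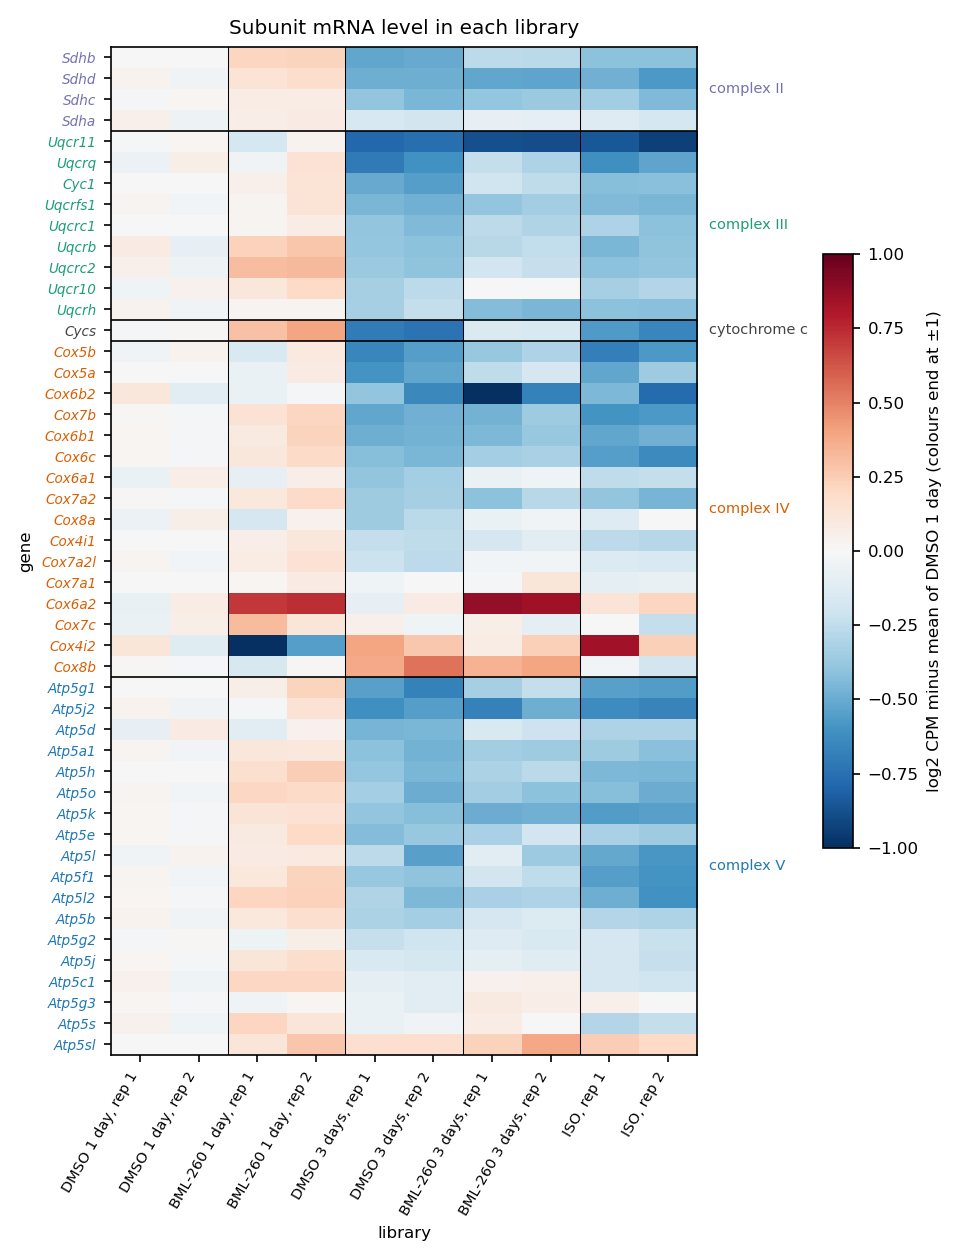
Level of the 48 tested subunit genes (rows, grouped by complex) in the 10 libraries (columns), as log2 CPM minus the mean of the 2 DMSO 1 day libraries; red is higher and blue lower, and colours end at 1 in either direction. The DMSO 3 days and ISO columns are blue for most rows, while Cox6a2 and Cycs stand out in the BML-260 columns.

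With DMSO alone, the subunit genes fell from 1 to 3 days. Of 48, 39 were lower and 1 was higher at 3 days, where 16.8% of all rows were lower and 18.1% higher (34.9% in either direction). The median change was -0.40 over the members and 0.0071 over all rows. By complex the medians were -0.46 for complex II (4 of 4 lower), -0.42 for complex III (9 of 9 lower), -0.33 for complex IV (11 of 16 lower, 1 higher) and -0.39 for complex V (14 of 18 lower). The SD of these medians between libraries of a group was 0.023 to 0.042 for the complexes, so the gap between complexes III and V and that between II and III lay within this spread. The SD among the members of a complex was larger, at 0.16 to 0.32. The order also depended on the measure. By the summed CPM above, complex II fell by the smallest proportion and complex III by the largest. The difference between complexes was not tested. The genes that fell most were Uqcr11 (-0.77), Cycs (-0.72), Uqcrq (-0.66), Atp5g1 (-0.61) and Cox5b (-0.60). Cox8b, the muscle form of subunit 8, was the member that rose, by 0.47 ± 0.11 (SE, edgeR adjusted p = 0.0017). Not called were Cox4i2, Cox6a2, Cox7a1, Cox7c, Atp5c1, Atp5g3, Atp5s and Atp5sl.

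**Figure D2:**
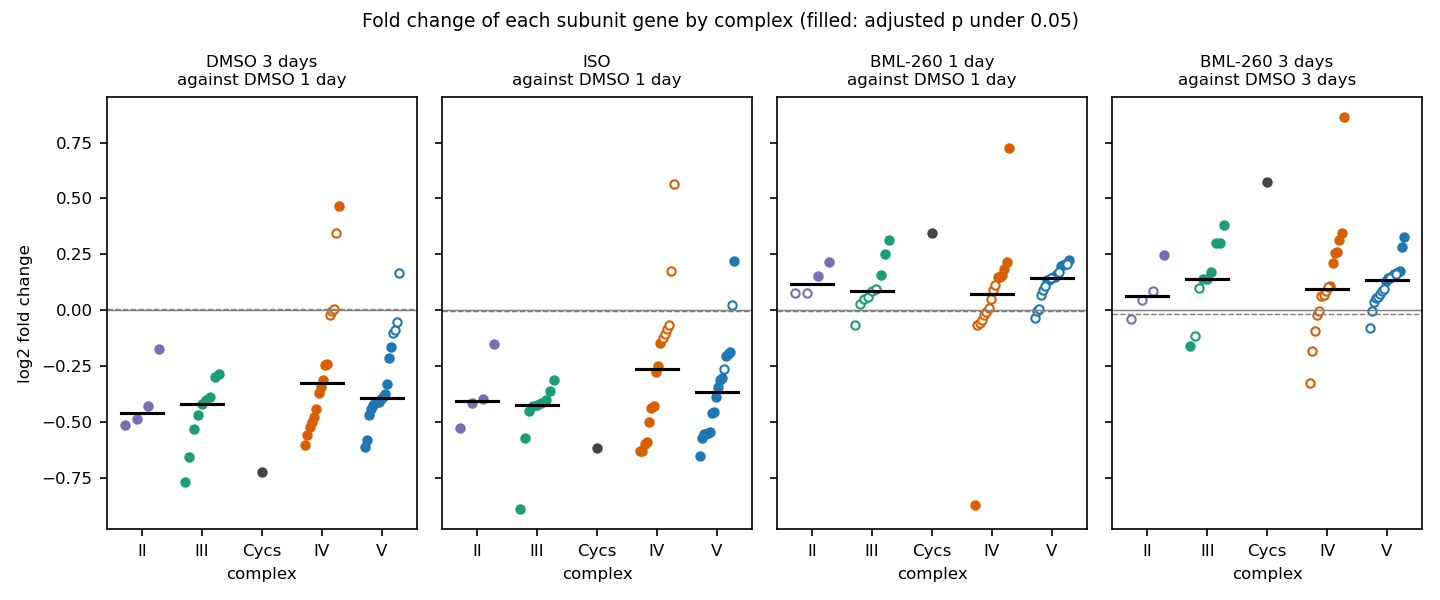
Log2 fold change of each subunit gene (points, sorted within a complex) in 4 comparisons; filled points passed an adjusted p of 0.05, black bars are medians of a complex and the dashed line is the median of all rows. DMSO 3 days and ISO against DMSO 1 day lie mostly below 0, and both BML-260 comparisons mostly above it, with smaller changes.

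Many subunit genes were slightly higher with BML-260 at 1 day. Of 48, 21 were higher and 1 was lower, where 9.32% and 8.62% of all rows were called in these directions (17.9% in either). The median change was 0.12 over the members and -0.0010 over all rows. Complex V had 9 of 18 higher (median 0.15), complex IV 6 of 16 (0.072), complex III 3 of 9 (0.086) and complex II 2 of 4 (0.12). Of the genes that rose, Cox6a2 (0.73) and Cycs (0.35) rose most, and the 1 that fell was Cox4i2 (-0.87). The count of higher members fell from 21 to 9 when DMSO 1 day replicate 2 was left out, and to 10 when BML-260 1 day replicate 2 was. The 8 calls kept under every alternative tried were Sdhb, Uqcrc2, Uqcrb, Cycs, Cox6a2, Atp5c1, Atp5h and Atp5l2.

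At 3 days, 23 of 48 members were higher with BML-260 and 1 was lower, where 17.3% of all rows were higher and 18.3% lower (35.5% in either direction). The median change was 0.12, against -0.016 over all rows. Complex III had 6 of 9 higher and 1 lower (median 0.14), complex V 8 of 18 higher (0.14), complex IV 7 of 16 (0.095) and complex II 1 of 4 (0.066). The member that fell was Uqcrh, the hinge protein of complex III (-0.16 ± 0.045, SE, edgeR adjusted p = 0.0070), a call lost without DMSO 3 days replicate 2 or BML-260 3 days replicate 2. The 16 calls kept under every alternative tried were Sdhb, Cyc1, Uqcr10, Uqcrc2, Uqcrq, Cycs, Cox5a, Cox5b, Cox6a1, Cox6a2, Cox7a2l, Cox8a, Atp5b, Atp5d, Atp5g1 and Atp5g3. With upper-quartile scaling 18 members were higher and 3 lower, and the split over all rows moved from 2625 higher and 2782 lower to 2077 and 3313. Relative to DMSO for 1 day, the medians per library with BML-260 for 3 days were still -0.33 and -0.32 for complex II, -0.26 and -0.30 for complex III, -0.12 and -0.098 for complex IV and -0.18 and -0.22 for complex V. With DMSO for 3 days they were -0.44 and -0.47, -0.40 and -0.44, -0.35 and -0.30 and -0.33 and -0.41 in the same order. The BML-260 libraries of 3 days thus lay between the DMSO libraries of both days in all 4 complexes.

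With ISO, the subunit genes were lower than with DMSO for 1 day: 39 of 48 were lower and 1 was higher, where 20.3% and 21.4% of all rows were (41.7% in either direction). The median change was -0.41 over the members and -0.0036 over all rows. The medians were -0.41 for complex II, -0.42 for complex III, -0.26 for complex IV and -0.36 for complex V. Against DMSO for 3 days, 6 members were lower and 2 higher, with 9.24% and 10.6% of all rows called (19.9% in either direction), and a median of -0.018. The higher ones were Cox8a (0.25) and Atp5d (0.16), and the lower ones Cox8b (-0.58), Atp5f1 (-0.18), Atp5l2 (-0.17), Cox6c (-0.15), Atp5k (-0.14) and Uqcrh (-0.13). Only the Cox8b call was kept under every alternative tried, and the count of lower members fell to 1 without DMSO 3 days replicate 1 or ISO replicate 2 and to 3 without DMSO 3 days replicate 2. Upper-quartile scaling moved the split over all rows from 3253 higher and 3086 lower to 2588 and 3831 against DMSO for 1 day. Against DMSO for 3 days it moved the split from 1620 and 1406 to 1234 and 1817. The 2 ISO comparisons share the ISO libraries. Fewer of all rows were called against DMSO for 3 days (19.9%) than against DMSO for 1 day (41.7%), and the cause of this was not tested. Below, a change with ISO is against DMSO for 1 day unless another control is named. ISO also shares its listed day with BML-260 for 1 day, and 43 of 48 members were higher with BML-260 and 1 lower than with ISO (background 21.6% and 22.8%, in either direction 44.4%; median 0.51). The lower one was Cox4i2, at -1.44 ± 0.27 (SE, edgeR adjusted p = 9.8e-05).

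Complex II, succinate dehydrogenase, is built from the flavoprotein Sdha, the iron-sulfur protein Sdhb and the membrane anchors Sdhc and Sdhd. Sdhb stood at 411 and 409 CPM with DMSO for 1 day, 476 and 477 with BML-260 for 1 day, 286 and 289 with DMSO for 3 days, 341 and 341 with BML-260 for 3 days, and 308 and 308 with ISO. It was the complex II gene called higher with BML-260 at both times, by 0.22 ± 0.041 (SE, edgeR adjusted p = 0.00041) and 0.25 ± 0.042 (SE, edgeR adjusted p = 4.0e-05). Both BML-260 libraries lay above both DMSO libraries of the same day, as they also did for Sdha and Sdhc. Sdhd, whose promoter is printed above, stood at 499 and 473 CPM with DMSO for 1 day, 534 and 547 with BML-260 for 1 day, 347 and 347 with DMSO for 3 days, 339 and 336 with BML-260 for 3 days, and 348 and 326 with ISO. It rose by 0.16 ± 0.044 (SE, edgeR adjusted p = 0.015) at 1 day, a call lost without DMSO 1 day replicate 2 or BML-260 1 day replicate 2, but at 3 days the BML-260 libraries lay below the DMSO libraries (-0.039 ± 0.045, SE, edgeR adjusted p = 0.53). The difference between its effects at the 2 times was -0.19 ± 0.063 (SE, edgeR adjusted p = 0.054). Sdha stood at 1310.5 and 1222 CPM with DMSO for 1 day, 1327 and 1343 with BML-260 for 1 day, 1130.3 and 1117 with DMSO for 3 days, 1197 and 1188 with BML-260 for 3 days, and 1157 and 1123 with ISO. Sdhc stood at 338 and 347 CPM with DMSO for 1 day, 361 and 362 with BML-260 for 1 day, 260.0 and 249 with DMSO for 3 days, 262 and 265 with BML-260 for 3 days, and 269 and 252 with ISO. Neither Sdha nor Sdhc was called for BML-260 at either time, and of the 4 genes Sdha had the smallest change with time (-0.17 ± 0.043, SE, edgeR adjusted p = 0.0024). That call was lost without DMSO 1 day replicate 1.

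In complex III, the members of smallest p over the 5 groups were Uqcr11, Uqcrc2, Cyc1 and Uqcrq. Uqcr11, a small subunit, stood at 385 and 396 CPM with DMSO for 1 day, 346 and 399.9 with BML-260 for 1 day, 227 and 232 with DMSO for 3 days, 212 and 211 with BML-260 for 3 days, and 217 and 204 with ISO. It was lower in every 3-day and ISO library than in any other, with -0.77 ± 0.053 (SE, edgeR adjusted p = 2.3e-11) for 3 days against 1 day of DMSO and -0.89 ± 0.054 (SE, edgeR adjusted p = 7.9e-13) for ISO. BML-260 did not change it detectably at 1 day (-0.066 ± 0.052, SE, edgeR adjusted p = 0.44) or 3 days (-0.12 ± 0.054, SE, edgeR adjusted p = 0.099). Uqcrc2, a core protein, stood at 502 and 467 CPM with DMSO for 1 day, 599 and 607 with BML-260 for 1 day, 374 and 367 with DMSO for 3 days, 424 and 412 with BML-260 for 3 days, and 364 and 369 with ISO. Its rise with BML-260 was 0.31 ± 0.044 (SE, edgeR adjusted p = 8.4e-06) at 1 day and 0.17 ± 0.044 (SE, edgeR adjusted p = 0.0033) at 3 days. The other core protein, Uqcrc1, was called at 3 days (0.14 ± 0.045, SE, edgeR adjusted p = 0.014) and not at 1 day (0.051 ± 0.044, SE, edgeR adjusted p = 0.48), and the 3-day call was lost with upper-quartile scaling and on leaving out DMSO 3 days replicate 2 or BML-260 3 days replicate 1. Cyc1, the cytochrome c1 that hands electrons to cytochrome c, stood at 930.4 and 927 CPM with DMSO for 1 day, 962 and 1023 with BML-260 for 1 day, 654 and 634 with DMSO for 3 days, 810.1 and 779 with BML-260 for 3 days, and 691 and 694 with ISO. It rose at 3 days by 0.30 ± 0.043 (SE, edgeR adjusted p = 4.1e-06), and the change at 1 day was 0.095 ± 0.043 (SE, edgeR adjusted p = 0.13). Uqcrq, a small subunit that helps bind ubiquinone, stood at 587 and 637 CPM with DMSO for 1 day, 597 and 678 with BML-260 for 1 day, 375 and 401 with DMSO for 3 days, 517 and 495 with BML-260 for 3 days, and 399.8 and 424 with ISO. The groups of 1 day overlapped for this gene, while at 3 days both BML-260 libraries were higher by 0.38 ± 0.055 (SE, edgeR adjusted p = 4.3e-06). Uqcrfs1, the Rieske iron-sulfur protein, fell with time (-0.47) and was not called for BML-260 at 1 day (0.086) or 3 days (0.099).

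Cycs, cytochrome c itself, stood at 103 and 105 CPM with DMSO for 1 day, 128 and 136 with BML-260 for 1 day, 63.8 and 62.2 with DMSO for 3 days, 93.7 and 93.7 with BML-260 for 3 days, and 70.0 and 65.9 with ISO. All BML-260 libraries lay above the DMSO libraries of their day, and the rise was 0.35 ± 0.049 (SE, edgeR adjusted p = 1.2e-05) at 1 day and 0.57 ± 0.053 (SE, edgeR adjusted p = 2.9e-09) at 3 days, or 1.27-fold and 1.49-fold. The effect was larger at 3 days by 0.23 ± 0.072 (SE, edgeR adjusted p = 0.051), which did not pass the threshold. Cycs also fell more than most members with time (-0.72 ± 0.053, SE, edgeR adjusted p = 5.9e-11). With ISO it was lower than with DMSO for 1 day, again by more than most (-0.61 ± 0.052, SE, edgeR adjusted p = 4.9e-10). Against DMSO for 3 days the ISO change of Cycs was 0.11 and not called. With BML-260 for 3 days it stayed below the DMSO libraries of 1 day.

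**Figure D3:**
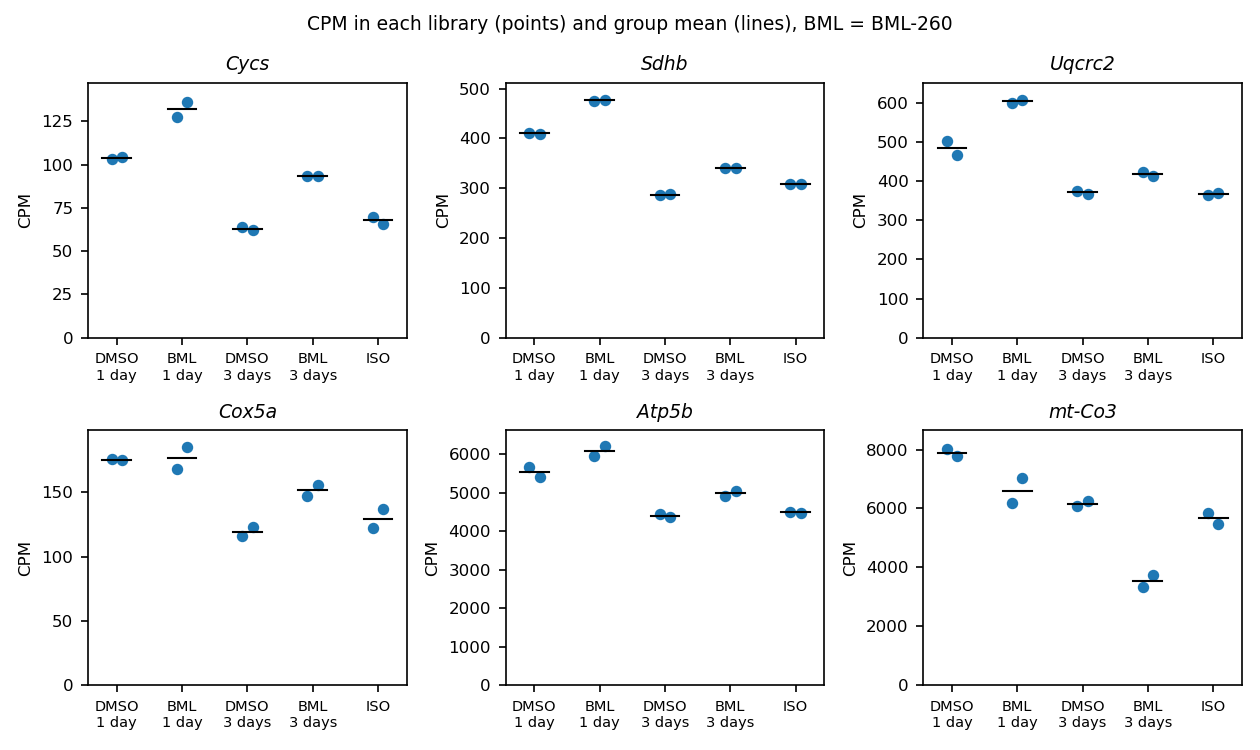
CPM of 5 nuclear genes and of the mitochondrially encoded mt-Co3 in each library (points) with the mean of each group (lines); every axis starts at 0. Cycs, Sdhb, Uqcrc2, Cox5a and Atp5b are higher with BML-260 than with DMSO at 3 days, and mt-Co3 is lower.

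Complex IV, cytochrome c oxidase, holds 3 mitochondrially encoded catalytic subunits surrounded by nuclear ones. The nuclear members of smallest p over the 5 groups were Cox7b, Cox6c, Cox6b1 and Cox7a2. Cox7b stood at 529 and 522 CPM with DMSO for 1 day, 582 and 611 with BML-260 for 1 day, 367 and 377 with DMSO for 3 days, 379 and 410.2 with BML-260 for 3 days, and 346 and 352 with ISO. Cox6c stood at 704 and 688 CPM with DMSO for 1 day, 751 and 793 with BML-260 for 1 day, 519 and 507 with DMSO for 3 days, 549 and 555 with BML-260 for 3 days, and 475 and 447 with ISO. Cox6b1, which binds at the cytochrome c side, stood at 752 and 731 CPM with DMSO for 1 day, 788 and 866 with BML-260 for 1 day, 529 and 535 with DMSO for 3 days, 543 and 571 with BML-260 for 3 days, and 518 and 532 with ISO. In all 3 genes every DMSO and BML-260 library of 1 day lay above every other library. Their falls with time were -0.50, -0.44 and -0.48, and their rises with BML-260 at 1 day were 0.18, 0.15 and 0.16, all called, though each call was lost without DMSO 1 day replicate 2 or BML-260 1 day replicate 2. At 3 days the BML-260 effect was 0.085, 0.11 and 0.065, none of them called. The difference between the effects at the 2 times was not called for any of the 3 genes, so they show no change of effect with time. Cox5a and Cox5b, which sit beside the catalytic core, were called at 3 days and not at 1 day. Both were called for the difference itself, and of the 2 only Cox5a kept that call under every alternative tried. Cox5a stood at 176 and 176 CPM with DMSO for 1 day, 168 and 186 with BML-260 for 1 day, 116 and 123 with DMSO for 3 days, 148 and 156 with BML-260 for 3 days, and 122 and 137 with ISO. Its difference was 0.010 ± 0.055 (SE, edgeR adjusted p = 0.93) at 1 day, and it rose by 0.35 ± 0.056 (SE, edgeR adjusted p = 2.4e-05) at 3 days. For Cox5b the difference was -0.021 ± 0.059 (SE, edgeR adjusted p = 0.85) at 1 day, and it rose by 0.26 ± 0.060 (SE, edgeR adjusted p = 0.0012) at 3 days. Cox7a2l rose at 3 days by 0.21 ± 0.044 (SE, edgeR adjusted p = 0.00041).

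Several complex IV subunits come as a widely expressed form and a form best known from heart and skeletal muscle or another tissue. Cox6a2, the muscle form of subunit 6a, stood at 16.4 and 18.1 CPM with DMSO for 1 day, 28.3 and 28.9 with BML-260 for 1 day, 16.3 and 18.3 with DMSO for 3 days, 31.8 and 31.1 with BML-260 for 3 days, and 18.8 and 20.1 with ISO. All 4 BML-260 libraries lay above all 6 others, with a rise of 0.73 ± 0.085 (SE, edgeR adjusted p = 6.6e-07) at 1 day and 0.86 ± 0.082 (SE, edgeR adjusted p = 4.9e-09) at 3 days, and no call for time (-0.0016 ± 0.091, SE, edgeR adjusted p = 0.99) or ISO (0.17 ± 0.090, SE, edgeR adjusted p = 0.12). Its widely expressed partner Cox6a1 stood at 747 and 816 CPM with DMSO for 1 day, 738 and 818 with BML-260 for 1 day, 595 and 615 with DMSO for 3 days, 746 and 757 with BML-260 for 3 days, and 655 and 663 with ISO, with a change of -0.0061 ± 0.049 (SE, edgeR adjusted p = 0.95) at 1 day and 0.31 ± 0.049 (SE, edgeR adjusted p = 1.6e-05) at 3 days. Per kilobase of mRNA, Cox6a2 made up 1.82% ± 0.0200 (SD, n = 2) of the 2 forms with DMSO and 3.00% ± 0.169 with BML-260 for 1 day. At 3 days the shares were 2.34% ± 0.130 and 3.39% ± 0.0809, and with ISO 2.42% ± 0.0835. Cox6a2 thus stayed a minor form in every library.

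Cox6a2 lies on chromosome 7 (GRCm38, 128205435 to 128206387, minus strand). It lies whole within the span of Itgad (128154376 to 128223816), an integrin gene on the other strand, and 70 of its exonic bases overlap an Itgad exon. The sources used here do not give the strand setting of the counting. Reads of the 2 genes may thus not be told apart in these bases or, for unspliced Itgad RNA, in the rest of Cox6a2. Itgad stood at 3.84 and 3.87 CPM with DMSO for 1 day, 6.87 and 6.49 with BML-260 for 1 day, 4.53 and 5.31 with DMSO for 3 days, 11.2 and 13.1 with BML-260 for 3 days, and 9.27 and 9.31 with ISO. It rose with BML-260 by 0.79 ± 0.16 (SE, edgeR adjusted p = 0.00085) at 1 day and 1.31 ± 0.13 (SE, edgeR adjusted p = 1.9e-08) at 3 days, and with ISO by 1.27 ± 0.15 (SE, edgeR adjusted p = 1.5e-07), a comparison in which Cox6a2 was not called. Of 10 skeletal and heart muscle markers 6 had a row, and Ckm, Myh6, Tnnt2 and Tnnt3 had at most 5 counts in any library. Their sum was nearly all Des, which stood at 65.8 and 62.7 CPM with DMSO for 1 day, 66.2 and 74.0 with BML-260 for 1 day, 63.2 and 63.1 with DMSO for 3 days, 62.8 and 64.0 with BML-260 for 3 days, and 78.7 and 76.1 with ISO and was not called for BML-260 at 1 day (0.13) or 3 days (0.0063). Acta1, at 0.103 to 1.43 CPM, was higher with BML-260 at 3 days by 1.95 ± 0.53 (SE, edgeR adjusted p = 0.0052), a call lost with DESeq2 and without DMSO 3 days replicate 2 or BML-260 3 days replicate 1. The part of muscle-type cells in the Cox6a2 result was not tested.

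Cox7a1, the muscle and brown fat form of subunit 7a, was the member not called over the 5 groups, and stood at 339 and 338 CPM with DMSO for 1 day, 343 and 358 with BML-260 for 1 day, 329 and 339 with DMSO for 3 days, 333 and 368 with BML-260 for 3 days, and 317 and 322 with ISO. Its partner Cox7a2 fell with time and was lower with ISO than with DMSO for 1 day. Cox7a2 stood at 491 and 485 CPM with DMSO for 1 day, 526 and 557 with BML-260 for 1 day, 382 and 389 with DMSO for 3 days, 367 and 403 with BML-260 for 3 days, and 371 and 354 with ISO. The share of Cox7a1 per kilobase was 53.8% ± 0.174 with DMSO and 52.1% ± 0.255 with BML-260 for 1 day, 59.2% ± 0.247 and 60.4% ± 0.0642 at 3 days, and 59.6% ± 1.11 with ISO. All 6 libraries of 3 days and ISO thus had a larger Cox7a1 share than the 4 others. Cox8b, another form known from muscle and brown fat, stood at 10.1 and 9.88 CPM with DMSO for 1 day, 8.93 and 10.1 with BML-260 for 1 day, 13.0 and 14.6 with DMSO for 3 days, 12.7 and 13.1 with BML-260 for 3 days, and 9.81 and 8.79 with ISO. It was the one member that was higher with DMSO at 3 days, and it was lower with ISO than with DMSO for 3 days (-0.58 ± 0.11, SE, edgeR adjusted p = 0.00057). Cox8a stood at 943 and 1028 CPM with DMSO for 1 day, 877 and 1016 with BML-260 for 1 day, 771 and 817 with DMSO for 3 days, 939.7 and 958 with BML-260 for 3 days, and 901 and 980.0 with ISO. It rose with BML-260 at 3 days (0.26 ± 0.056, SE, edgeR adjusted p = 0.00078) and not at 1 day (-0.058 ± 0.056, SE, edgeR adjusted p = 0.54), and its share left Cox8b at 1.53% ± 0.112 with DMSO for 1 day and 2.59% ± 0.101 with DMSO for 3 days.

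Cox4i2, a form of subunit 4 known to respond to low oxygen, had few counts and stood at 2.50 and 2.09 CPM with DMSO for 1 day, 0.940 and 1.53 with BML-260 for 1 day, 3.05 and 2.78 with DMSO for 3 days, 2.41 and 2.72 with BML-260 for 3 days, and 4.19 and 2.72 with ISO. Its fall with BML-260 at 1 day was -0.87 ± 0.30 (SE, edgeR adjusted p = 0.040), a call that was lost with DESeq2 and without DMSO 1 day replicate 1, DMSO 1 day replicate 2 or BML-260 1 day replicate 1. Cox4i1 stood at 1159.8 and 1148 CPM with DMSO for 1 day, 1211 and 1251 with BML-260 for 1 day, 980.3 and 969 with DMSO for 3 days, 1027 and 1072 with BML-260 for 3 days, and 963 and 947 with ISO and made up nearly all of the pair. Cox6b2, the testis form of subunit 6b, stood at 6.70 and 5.69 CPM with DMSO for 1 day, 5.88 and 6.12 with BML-260 for 1 day, 4.68 and 3.92 with DMSO for 3 days, 3.02 and 3.82 with BML-260 for 3 days, and 4.49 and 3.58 with ISO. It was not called for BML-260 at 1 day (-0.041) or 3 days (-0.32).

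**Figure D4:**
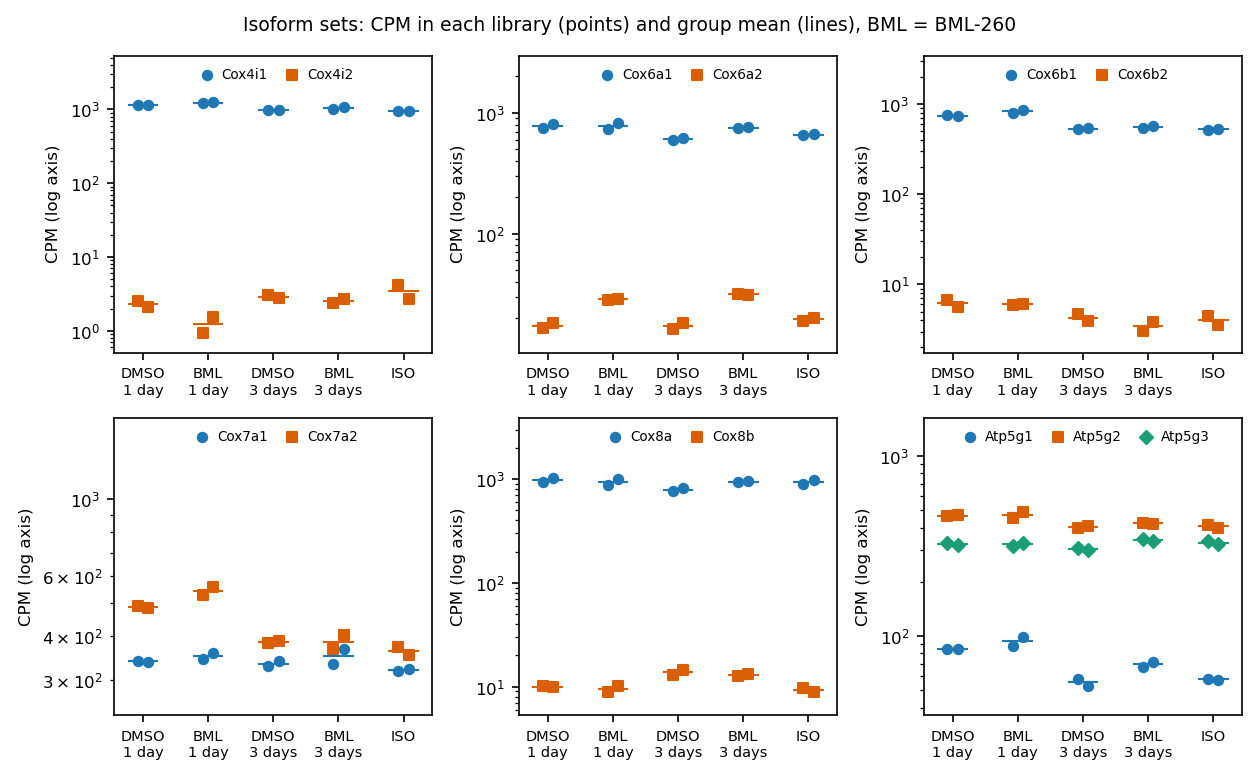
CPM of the members of 6 isoform sets in each library (points) with group means (lines), on log axes. Cox6a2 is higher in the 4 BML-260 libraries, Cox7a2 is lower with time and ISO while Cox7a1 was not called over the 5 groups, and the minor forms Cox4i2, Cox6a2, Cox6b2 and Cox8b lie far below their partners.

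Complex V has a catalytic F1 head (Atp5a1, Atp5b, Atp5c1, Atp5d, Atp5e), a side stalk (Atp5f1, Atp5h, Atp5j, Atp5o), a ring of c subunits (Atp5g1 to Atp5g3) and small membrane subunits (Atp5j2, Atp5k, Atp5l). The members of smallest p over the 5 groups were Atp5k, Atp5h, Atp5j2 and Atp5f1. Atp5k stood at 249 and 243 CPM with DMSO for 1 day, 269 and 271 with BML-260 for 1 day, 187 and 183 with DMSO for 3 days, 174 and 177 with BML-260 for 3 days, and 167 and 169 with ISO. It rose with BML-260 at 1 day by 0.14 ± 0.043 (SE, edgeR adjusted p = 0.028), a call lost under 5 alternatives, and at 3 days the change was -0.079 ± 0.044 (SE, edgeR adjusted p = 0.17). Atp5j2 stood at 352 and 334 CPM with DMSO for 1 day, 340.4 and 379 with BML-260 for 1 day, 225 and 234 with DMSO for 3 days, 214 and 244 with BML-260 for 3 days, and 221 and 215 with ISO. Atp5f1 stood at 286 and 276 CPM with DMSO for 1 day, 302 and 327 with BML-260 for 1 day, 216 and 213 with DMSO for 3 days, 247 and 235 with BML-260 for 3 days, and 192 and 186 with ISO. Both fell with time (-0.58 and -0.39) and were lower with ISO than with DMSO for 1 day (-0.65 and -0.57). Of the 2 only Atp5f1 was called for BML-260, at 0.16 and 0.17. Its call was lost at 1 day if DMSO 1 day replicate 2 or BML-260 1 day replicate 2 was left out, and at 3 days if BML-260 3 days replicate 1 was. Atp5h stood at 576 and 574 CPM with DMSO for 1 day, 643 and 680.3 with BML-260 for 1 day, 439 and 419 with DMSO for 3 days, 461 and 477 with BML-260 for 3 days, and 421 and 419 with ISO, and its rise was 0.20 ± 0.044 (SE, edgeR adjusted p = 0.0015) at 1 day and 0.13 ± 0.044 (SE, edgeR adjusted p = 0.023) at 3 days. The 3-day call was lost with upper-quartile scaling and on leaving out DMSO 3 days replicate 2 or BML-260 3 days replicate 2.

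In the F1 head, Atp5b, the catalytic beta subunit, rose with BML-260 at both times, by 0.14 ± 0.042 (SE, edgeR adjusted p = 0.023) and 0.18 ± 0.042 (SE, edgeR adjusted p = 0.0016). Its 1-day call was lost with only the groups compared and on leaving out DMSO 1 day replicate 2 or BML-260 1 day replicate 2. The gamma subunit Atp5c1, the central shaft, rose by 0.21 ± 0.042 (SE, edgeR adjusted p = 0.00093) and 0.15 ± 0.042 (SE, edgeR adjusted p = 0.0088) and was not called for time (-0.099 ± 0.042, SE, edgeR adjusted p = 0.071). Its 3-day call was lost if BML-260 3 days replicate 2 was left out. The delta subunit Atp5d differed from these: its change was -0.036 ± 0.052 (SE, edgeR adjusted p = 0.70) at 1 day and 0.28 ± 0.052 (SE, edgeR adjusted p = 0.00011) at 3 days. The alpha subunit Atp5a1 was not called for BML-260 at either time (0.11 and 0.085).

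The c ring proteins are encoded by 3 genes whose mature proteins are the same. Atp5g1 stood at 84.6 and 84.5 CPM with DMSO for 1 day, 88.2 and 98.5 with BML-260 for 1 day, 57.9 and 52.9 with DMSO for 3 days, 67.3 and 71.8 with BML-260 for 3 days, and 58.1 and 57.2 with ISO. Atp5g2 stood at 462 and 470.4 CPM with DMSO for 1 day, 451 and 487 with BML-260 for 1 day, 397 and 407 with DMSO for 3 days, 427 and 419.9 with BML-260 for 3 days, and 414 and 399.9 with ISO. Atp5g3 stood at 329 and 319.8 CPM with DMSO for 1 day, 317 and 329 with BML-260 for 1 day, 309 and 302 with DMSO for 3 days, 344 and 339 with BML-260 for 3 days, and 336 and 323 with ISO. Atp5g1, the least abundant, moved most: it fell with time (-0.61 ± 0.060, SE, edgeR adjusted p = 1.2e-08), where Atp5g3 was not called (-0.087 ± 0.044, SE, edgeR adjusted p = 0.13), and it rose with BML-260 at 3 days by 0.33 ± 0.061 (SE, edgeR adjusted p = 0.00013). Per kilobase, Atp5g1 was 2.48% ± 0.00478 of the 3 with DMSO for 1 day and 1.84% ± 0.124 for 3 days. Atp5g2 held 62.2% ± 0.728 and 60.6% ± 0.908, and Atp5g3 35.3% ± 0.724 and 37.6% ± 0.784. These shares depend on the mean transcript lengths used, 2665.5 bases for Atp5g1, 586 for Atp5g2 and 718.5 for Atp5g3. The SD does not cover this.

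A few rows taken by the symbol rule are not plain subunits. Atp5sl is annotated as Dmac2, an assembly factor, and was the member that was higher with ISO than with DMSO for 1 day (0.22 ± 0.077, SE, edgeR adjusted p = 0.023), a call lost under 6 alternatives. Atp5s, coupling factor B, was called in 1 pairwise comparison, BML-260 for 1 day against ISO (0.43 ± 0.11, SE, edgeR adjusted p = 0.0020). Atp5l2 is annotated as a processed pseudogene (Atp5l2-ps, chromosome 11, 97768060 to 97768371) and stood at 111 to 197 CPM, above Atp5l at 58.8 to 94.3 CPM. The sources used here do not give how reads that match near-identical copies were counted, so the values of both rows are uncertain. Atp5sl, Atp5s and Atp5l2 are included in the counts, sums and medians of complex V above. Atp5l2 is among the rows called higher with BML-260 at 1 day. In all, 13 members share exonic bases with another gene, in 1 case (Atp5o, with antisense transcripts) at least 20% of them. Uqcrc2 was just under this, with 504 exonic bases (19.7%) shared with Pdzd9, a protein-coding gene on the other strand.

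The level per kilobase of mRNA spanned a wide range. Over all libraries, Atp5b was highest at 2661 CPM per kilobase, followed by Cox8a (1678), Cox4i1 (1421), Cox6a1 (1252) and Cox6b1 (1029.9). In complex III the highest was Uqcr10 (867) and the lowest Uqcrc2 (237), and in complex II Sdha (418) and Sdhc (93.5). Cycs stood at 29.5 CPM per kilobase of its long mRNA. Leaving out Cox8c, the lowest members were Cox4i2 (3.42), Atp5s (7.31) and Cox6b2 (9.73).

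The effects of BML-260 at 1 and 3 days were compared directly, with the effect at 1 day taken from that at 3 days. Of 48 members, 7 had a larger and 1 a smaller effect at 3 days, where 3.93% and 4.51% of all rows did (8.44% in either direction). The differences were 0.34 for Cox5a, 0.32 for Uqcrq, 0.32 for Cox6a1, 0.32 for Atp5d, 0.32 for Cox8a, 0.28 for Cox5b, 0.21 for Cyc1 and -0.21 for Atp5k. At 1 day none of the first 7 was called for BML-260, and at 3 days all of them were. The 7 were picked by this difference in the same libraries, so this split is no separate support. The median difference was -0.010 in complex II, 0.014 in complex III, 0.017 in complex IV and -0.042 in complex V. The count of larger effects fell from 7 to 2 without DMSO 1 day replicate 2 and to 3 without BML-260 1 day replicate 1. The Atp5k call was lost on leaving out any DMSO or BML-260 library other than DMSO 1 day replicate 1, and only Cox5a and Cox6a1 kept their call under every alternative tried. The mRNAs of the 7 genes had a median GC content of 55.7% (49.0% to 60.7%), against 50.7% (39.6% to 58.9%) for the other 40 members with a transcript sequence. Across 47 members, the BML-260 effect at 1 day had a Pearson correlation of -0.39 with GC content, and at 3 days of -0.081. These points share the same libraries and genes are not independent replicates.

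**Figure D5:**
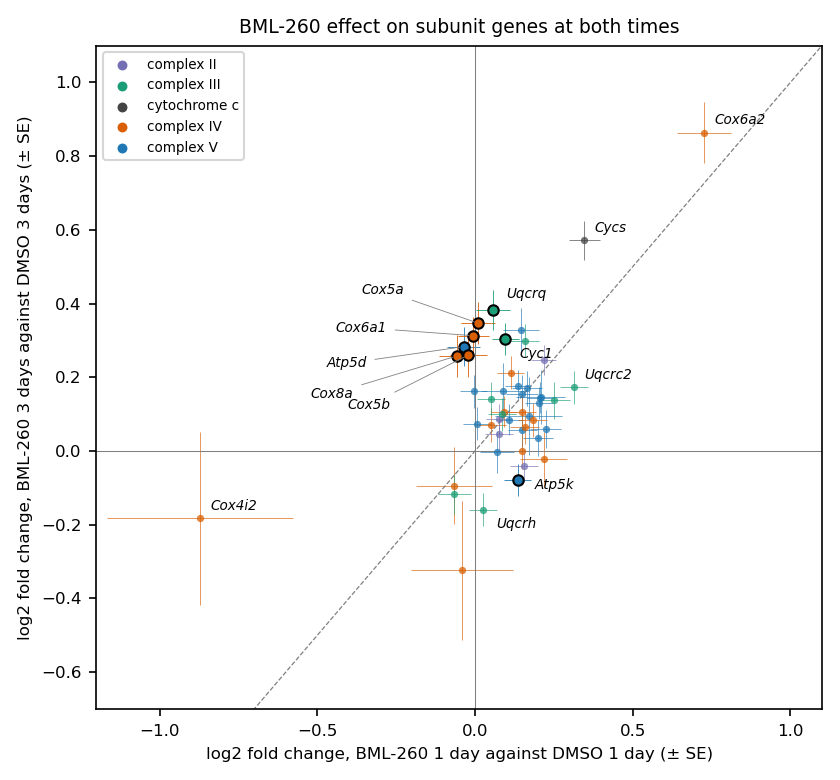
Log2 fold change with BML-260 at 1 day (horizontal) and 3 days (vertical) for the 48 members, with standard errors; large outlined points are the 8 genes whose effects differed between the times, and the dashed line marks equal effects. Cox5a, Cox5b, Cox6a1, Cox8a, Atp5d, Uqcrq and Cyc1 lie above the line near 0 on the horizontal axis, Atp5k lies below it, and Cycs and Cox6a2 are high on both axes.

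The only mitochondrially encoded subunit of complexes III to V that was measured fell with BML-260. Of the 6 such subunits in complexes III to V looked for, mt-Co3, a catalytic core subunit of complex IV, had a row. It stood at 8013 and 7788 CPM with DMSO for 1 day, 6184 and 7025 with BML-260 for 1 day, 6085 and 6241 with DMSO for 3 days, 3336 and 3742 with BML-260 for 3 days, and 5839 and 5483 with ISO. It fell with BML-260 at 1 day (-0.26 ± 0.054, SE, edgeR adjusted p = 0.0012) and more at 3 days (-0.80 ± 0.054, SE, edgeR adjusted p = 1.1e-11), with a difference between the times of -0.54 ± 0.076 (SE, edgeR adjusted p = 7.3e-05). Its change with time was -0.36 ± 0.054 (SE, edgeR adjusted p = 8.6e-06) and with ISO against DMSO for 1 day -0.48 ± 0.054 (SE, edgeR adjusted p = 6.3e-08), the direction of most nuclear members. Against DMSO for 3 days the ISO change of mt-Co3 was -0.12 and not called. The BML-260 libraries of 3 days held the lowest mt-Co3 values of all 10, while 7 of the 16 nuclear complex IV genes were higher in them than with DMSO. Of 7 mitochondrially encoded subunits of complex I looked for, 2 were tested, mt-Nd3 and mt-Nd5. Both were lower with BML-260 at 1 day (median -0.60) and 1 of them at 3 days (median -0.57). Of all rows, 8.62% and 18.3% were lower at these times. Unlike mt-Co3, neither was called for the difference between the times. The sources used here do not say how reads of the mitochondrial genome were selected and counted.

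The nuclear genes of complex I, where electrons from NADH enter the chain, were counted in the same way. Of 35 tested nuclear subunits of complex I, 18 were higher and none lower with BML-260 at 1 day (median 0.13), and 24 were higher and 1 lower at 3 days (0.15). Of all rows, 9.32% were higher and 8.62% lower at 1 day, and 17.3% and 18.3% at 3 days. At 1 day the higher count fell to 8 if DMSO 1 day replicate 2 was left out and to 9 if BML-260 1 day replicate 2 was, and at 3 days to 14 if BML-260 3 days replicate 2 was. With time 35 of 35 fell (-0.43), where 16.8% of all rows were lower. With ISO 34 were lower than with DMSO for 1 day (-0.43), where 20.3% of all rows were. Ndufa4, now counted with complex IV, fell with time (-0.65 ± 0.048, SE, edgeR adjusted p = 7.1e-11) and rose with BML-260 at 3 days by 0.14 ± 0.048 (SE, edgeR adjusted p = 0.024), a call lost with upper-quartile scaling and without DMSO 3 days replicate 2 or BML-260 3 days replicate 2. The authors' deposited tables of genes that differed list 17 members at 1 day, all higher with BML-260, and 27 at 3 days, 26 of them higher. These were 35.4% and 56.2% of the 48 tested members, where the lists held 7.45% and 20.9% of all tested rows. Of the listed members, all 17 and 24 of the 27 were also called here, with the same sign in every case. Those listed at 3 days but not called here were Cox6c, Sdha and Atp5a1, each listed as higher with BML-260.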

How the data were processed

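RNA sequencing counts were analysed for 10 libraries, 2 in each of 5 groups taken from the labels. The authors deposited raw counts per gene symbol; TopHat2 2.1.1, DESeq2, bedtools and bcl2fastq 2.17.1.14 are named, with builds mm9 and mm10 and no role for either, per the submitters' processing notes. The sources used here do not give the counting rule, annotation or strand setting. The authors' deposited tables of genes that differed give log2 fold changes and p-values, of which only the lists and signs were used. Counts summed to between 16955918 and 21185675 per library, and the common coefficient of variation in edgeR was 3.39%.

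Rows were kept with filterByExpr (minimum count 10, minimum total 15), scaled by TMM and fitted in edgeR 4.0.16 (R 4.3.3) over all 5 groups with a quasi-likelihood test. There were 5 residual degrees of freedom, and p-values were adjusted by Benjamini-Hochberg over 15212 rows. Standard errors were taken as |log2 fold change| / sqrt(F). CPM were computed from the counts after TMM scaling. The test was run on simulated data first. Lengths are mean lengths of CCDS transcripts from GENCODE M21 (GRCm38), and promoters come from RefSeq (GRCm38.p6).

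The members and all gene lists were chosen with earlier results of these data known. Any member may be named; values in every library are given for complex II, Cycs, Cyc1, the isoform sets and, in complexes III, IV and V, the 4 members of smallest p over the 5 groups, and further values where a comparison turns on them. Of other lists, up to 3 genes of smallest p for BML-260 at 3 days may be named, with Ucp1 and Ppargc1a. Cell markers, and Itgad for its overlap with Cox6a2, were named beside these.

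Alternatives were DESeq2 size factors, upper-quartile scaling, the DESeq2 1.42.0 tests, no filter, only the groups compared, a replicate block and leaving out each library. Replicates of a group had more spread than sampling noise. Figures used matplotlib 3.10.9.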

Additional observations from a re-analysis of the deposited data

Results flagged for a closer look

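The effect of BML-260 differed between 3 days and 1 day, by the edgeR test of the difference itself, for 8 subunit genes. Each value is the effect at 3 days minus that at 1 day on the log2 scale. In complex III it was 0.32 ± 0.077 (SE, edgeR adjusted p = 0.0086) for Uqcrq and 0.21 ± 0.061 (SE, edgeR adjusted p = 0.034) for Cyc1. In complex IV it was 0.34 ± 0.079 (SE, edgeR adjusted p = 0.0076) for Cox5a, 0.32 ± 0.070 (SE, edgeR adjusted p = 0.0046) for Cox6a1, 0.32 ± 0.080 (SE, edgeR adjusted p = 0.013) for Cox8a and 0.28 ± 0.084 (SE, edgeR adjusted p = 0.035) for Cox5b. In complex V it was 0.32 ± 0.073 (SE, edgeR adjusted p = 0.0069) for Atp5d and -0.21 ± 0.062 (SE, edgeR adjusted p = 0.029) for Atp5k. Without DMSO 1 day replicate 2, the test called Cox5a and Cox6a1 alone among the larger effects, and the Atp5k call was lost as well.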

How the results depend on the processing

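Of the calls among members, 8 of 22 were kept under every alternative for BML-260 at 1 day, 16 of 24 at 3 days, 2 of 8 for the difference of these effects, 36 of 40 for ISO against DMSO for 1 day, 1 of 8 for ISO against DMSO for 3 days, 41 of 44 for BML-260 for 1 day against ISO, and 37 of 40 for DMSO for 3 days against 1 day. No call of a single member turned its direction. Upper-quartile scaling gave 3 lower members for BML-260 at 3 days, 3 for the difference, 0 higher for ISO against DMSO for 1 day and 1 against DMSO for 3 days. Its medians were 0.031 (complex II) and 0.060 (IV) for BML-260 at 3 days, -0.46 (II), -0.48 (III), -0.31 (IV) and -0.42 (V) for ISO against DMSO for 1 day, -0.0046 (II, turned) and -0.057 (IV) for ISO against DMSO for 3 days, and 0.59 (II) and 0.44 (IV) for BML-260 against ISO. DESeq2 tests gave 0 lower for BML-260 at 1 day and 0 higher for ISO against DMSO for 1 day, which had 2 higher without a filter. Lower members were 2 for BML-260 at 3 days with only the groups compared, and 2 for the difference without a filter. Same-numbered libraries correlated by -0.034 to 0.058 in their deviations over 10 pairs, so they share only a number; the replicate block gave 2 lower members for the difference and moved no other count by more than 1.5 times. Leaving out 1 library at a time, the higher members ranged over 9 to 22 for BML-260 at 1 day, 2 to 8 for the difference of these effects, 0 to 1 for ISO against DMSO for 1 day and 0 to 2 for ISO against DMSO for 3 days. The lower members ranged over 0 to 2 for BML-260 at 1 day, 0 to 1 for BML-260 at 3 days, 0 to 3 for the difference of these effects and 1 to 6 for ISO against DMSO for 3 days. The lowest counts of higher members for BML-260 at 1 day and for the difference came without DMSO 1 day replicate 2, and that of lower members for ISO against DMSO for 3 days without DMSO 3 days replicate 1. The medians ranged in complex II over 0.11 to 0.16 for BML-260 at 1 day, 0.064 to 0.11 for BML-260 at 3 days, -0.027 to 0.036 for the difference of these effects, -0.43 to -0.38 for ISO against DMSO for 1 day, -0.0082 to 0.060 for ISO against DMSO for 3 days, 0.53 to 0.58 for BML-260 for 1 day against ISO and -0.48 to -0.45 for DMSO for 3 days against 1 day, in complex III over 0.036 to 0.14 for BML-260 at 1 day, 0.14 to 0.19 for BML-260 at 3 days, -0.038 to 0.068 for the difference of these effects, -0.45 to -0.38 for ISO against DMSO for 1 day, 0.49 to 0.59 for BML-260 for 1 day against ISO and -0.48 to -0.41 for DMSO for 3 days against 1 day, in complex IV over 0.049 to 0.11 for BML-260 at 1 day, 0.063 to 0.14 for BML-260 at 3 days, -0.035 to 0.077 for the difference of these effects, -0.29 to -0.23 for ISO against DMSO for 1 day, 0.39 to 0.45 for BML-260 for 1 day against ISO and -0.36 to -0.28 for DMSO for 3 days against 1 day, and in complex V over -0.060 to 0.013 for the difference of these effects, -0.052 to 0.013 for ISO against DMSO for 3 days and -0.42 to -0.34 for DMSO for 3 days against 1 day. Fits that left 1 library in a group assume that it varies like the others. The cause of these shifts was not tested.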

Other observations

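Genes that build the complexes, but are no part of them, were also followed. Of 21 tested assembly factors of complex IV, 14 were lower and none higher with DMSO for 3 days than for 1 day, and with BML-260 at 3 days 6 were higher and 4 lower. Of all rows, 16.8% were lower with time, and 17.3% were higher and 18.3% lower with BML-260 at 3 days, so the lower count for BML-260 is near that of all rows. Cox18, which inserts a mitochondrially made subunit into the membrane, rose by 0.60 ± 0.10 (SE, edgeR adjusted p = 3.4e-05), and Cox19, a copper factor, by 0.31 ± 0.067 (SE, edgeR adjusted p = 0.00071). Pet100, an early assembly factor, fell (-0.44 ± 0.10, SE, edgeR adjusted p = 0.0015). Of 6 assembly factors of complex III, 6 were lower with time, and Uqcc2 rose with BML-260 at 3 days by 0.44 ± 0.056 (SE, edgeR adjusted p = 6.1e-07). None of the 3 tested for complex II or the 3 for complex V was called for BML-260 by edgeR at either time.

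Of 16 tested regulators of respiratory chain genes, 3 were higher and 4 lower with BML-260 at 3 days (median 0.00092), near the shares of all rows given above, so the counts are no result about the list. The coactivator Ppargc1b fell (-0.51 ± 0.058, SE, edgeR adjusted p = 1.3e-07), as did Ppargc1a (-0.28 ± 0.061, SE, edgeR adjusted p = 0.00082), while their relative Pprc1 rose by 0.51 ± 0.062 (SE, edgeR adjusted p = 3.6e-07). At 1 day the difference for Ppargc1a was 0.012 ± 0.060 (SE, edgeR adjusted p = 0.92). Chchd2, a mitochondrial protein that also acts on a complex IV gene, rose with BML-260 at 3 days by 0.31 ± 0.052 (SE, edgeR adjusted p = 3.2e-05).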
